A study of Mus musculus with 21 samples.

Results

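The RNA of ERBB, MET and AXL family receptors was followed here in mouse pancreatic cancer cells. The members were the table entries with the symbols Egfr, Erbb2, Erbb3, Erbb4, Met, Mst1r, Axl, Mertk, Tyro3 and Gas6, which makes 10 of the 34478 genes listed, 9 receptors and the ligand Gas6. They had been picked by symbol as receptors through which signalling could bypass a blocked MEK kinase.

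RNA from 6 cell lines, numbered #3, #4, #6, #7, #9 and #10, was sequenced in 4 states. Parental cells (6 samples) had not been treated, and Resistant cells (6 samples) had been adapted to rising doses of trametinib, a MEK inhibitor, and were kept in it at 100x their IC50. P5 (3 samples, lines #3, #7 and #9) and P12 (6 samples) were resistant cells grown on without the drug and named by drug-free passages, 5 and 12. The sample descriptions of P5 from lines #7 and #9 state 12 passages where the titles state P5.

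The alleles shared by all lines included Ptf1awt/Cre and Trp53loxP/loxP, where Cre made from the Ptf1a locus deletes Trp53 in the pancreas from its development onward, so the deletion was not acquired in adult tissue. The lines were grown from tumour pieces of such mice. A line gave 1 sample per state, and the lines served as replicates. More than 1 sequencer model was used, the samples were not assigned to them in the sources, and values within a sequencing batch could not be given.

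The deposited values were gene counts normalized by the authors with DESeq2, called normalized counts here. A sample held an estimated 24.0 to 42.5 M reads (M for mega, median 32.6), and the state medians lay between 31.8 M in Resistant and 34.9 M in Parental cells. The smallest visible signal, taken as 3 reads, came to between 2.32 and 4.07 normalized counts in a sample. That limit covers counting error only. Genes with at least 10 normalized counts in at least 3 samples were tested with limma on log2 values (pseudocount 1), which kept 19300 genes and 9 of the 10 members. A gene counts as called when its adjusted p lay under 0.01 and its log2 fold change was larger than 1 in either direction.

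Receptor tyrosine kinases sit in the cell membrane, pair up when a ligand binds, and pass the signal on through adaptors to the MAPK and PI3K routes. The ERBB receptors answer EGF-like ligands and neuregulins, Met answers hepatocyte growth factor, and Mst1r (RON) answers the related ligand Mst1. Axl, Mertk and Tyro3 answer Gas6, and Mertk and Tyro3 also answer protein S. In the pancreas Egfr takes part in tumour formation, and receptors of these families are known in several tumours to restore growth signals when a kinase further down is inhibited.

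The cells were labelled as lines from pancreatic cancer, and the epithelial marker list was checked in them. Of its 10 genes 9 were tested, and Epcam was at 0 in 20 of 21 samples with a highest value of 3.61. Summed over the list, Parental cells held 16121 to 254487 normalized counts (median 217775), Resistant cells 737 to 212057 (median 59591), P5 524 to 222990 (median 20400) and P12 526 to 199701 (median 50976). Krt8 was the most abundant gene of the list by its mean, and the lowest sum of every state was that of line #9. Between Resistant and Parental cells limma called 2 of the 9, Cldn4 and Cldn7, both lower (6 lower with the cell line as a block). The part of these markers in the results on the receptors was not tested.

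Axl is the TAM receptor with the strongest binding to Gas6, and it lies at chr7:25757273-25788705 on the minus strand (mm10). Parental cells held 19504 to 38088 normalized counts of Axl (median 29371) and Resistant cells 6731 to 18826 (median 11062). The highest Resistant sample, line #7, lay under the lowest Parental sample, line #3, so the states did not overlap. Axl was lower in Resistant than in Parental cells in 6 of 6 lines, between 1.44-fold in line #7 and 3.95-fold in line #6, with a mean within-line log2 difference of -1.35 ± 0.57 (SD, n = 6 lines). The limma fit gave a log2 fold change of -1.35 (standard error 0.26, adjusted p = 0.00177), and Axl was the only member called, 1 of 9 tested, where 5.30% of all genes tested were called (10.5% with the cell line as a block, where Axl was again the only member). In bulk samples, less RNA per cell and fewer cells with the RNA cannot be told apart. Leaving out line #4, #6 or #9 took the adjusted p of Axl to 0.0127, 0.0173 and 0.0106, which missed the threshold, with log2 fold changes of -1.30, -1.22 and -1.27. Groups of 6 against 6 that did not overlap were found for Axl as 1 of 9 members and for 5.99% of all genes tested.

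Without the drug, Axl held 15424 to 32294 normalized counts in P12 (median 24800). These values overlapped with those of Resistant cells through line #3, and each line was nevertheless higher in P12 than in its own Resistant sample. The difference lay between 1.42-fold in line #10 and 2.75-fold in line #9, and the within-line log2 differences averaged 1.04 ± 0.35 (SD, n = 6 lines). In limma the adjusted p was 0.0191, so 0 of 9 members were called between P12 and Resistant cells (1 at an unadjusted p under 0.05, Axl), beside 2.13% of all genes called and 19.8% at an unadjusted p under 0.05. With the cell line as a replicate block the adjusted p of Axl was 0.000887 and it was called higher, 1 of 9 members beside 4.52% of all genes. With the block and without line #9, a setting chosen after seeing the data, its log2 fold change was 0.95 (adjusted p = 0.00605), under the fold threshold, and it was not called. Rescaling to the upper quartile also brought the call, with a log2 fold change of 1.13 and an adjusted p of 0.00760, beside a median log2 fold change of 0.11 over all genes under that scaling.

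Axl in P5 held 14625 normalized counts in line #3, 30664 in line #7 and 18270 in line #9. All 3 samples were above the Resistant sample of their line, and the within-line log2 differences averaged 0.93 ± 0.21 (SD, n = 3 lines). Against all Resistant samples the log2 fold change was 0.84 (standard error 0.31, adjusted p = 0.191), which was not called. P12 was lower in Axl than Parental cells in 5 of 6 lines, by a log2 fold change of -0.31 (adjusted p = 0.592), and line #7 was the exception. The comparisons with P12 and P5 used the same Resistant or Parental samples as the comparison of Resistant with Parental cells, so their values are set side by side only.

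**Figure D1:**
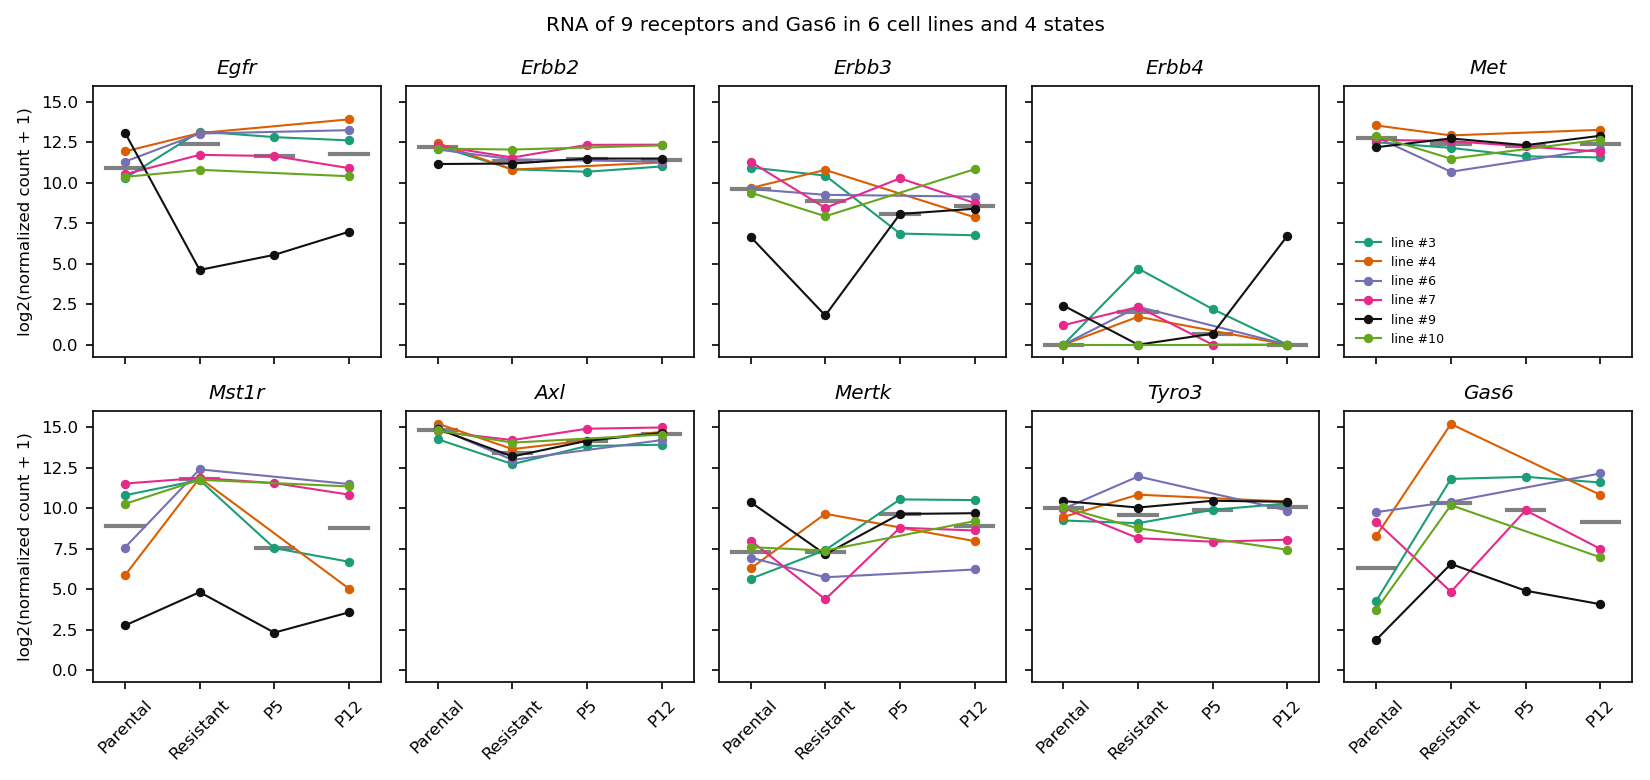
Normalized counts of the 10 members as log2(value + 1) on the vertical axis, by state on the horizontal axis, with a coloured line for each of the 6 cell lines and grey bars at the state medians. Axl fell from a median of 29371 normalized counts in Parental to 11062 in Resistant cells, and Egfr of line #9 went from 8753 to 23.5 where the other 5 lines were higher in Resistant cells.

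Gas6, the secreted ligand that bridges the TAM receptors to phosphatidylserine, lies at chr8:13465374-13494490 on the minus strand. Its values ran from 2.65 to 861 normalized counts in Parental cells (median 164) and from 27.5 to 37482 in Resistant cells (median 1251). The highest value was that of Resistant line #4, the Parental value of line #9 lay under the smallest visible signal of its sample (3.99), and the states overlapped. Gas6 was higher in Resistant than in Parental cells in 5 of 6 lines, among them 197-fold in line #3, 121-fold in line #4 and 94.4-fold in line #10, and 20.9-fold lower in line #7. The log2 fold change of 3.65 had a standard error of 1.85 and an adjusted p of 0.198 (0.0375 with the cell line as a block), and it was not called in either fit. Within lines the log2 difference was -4.34 in line #7 and 0.64 to 7.54 in the other lines. In P12 Gas6 ranged from 15.7 to 4514 normalized counts (median 993), and P5 held 3907 in line #3, 931 in line #7 and 28.8 in line #9. Between P12 and Resistant cells 2 lines were higher and 4 lower, with 20.7-fold less Gas6 in line #4.

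Mertk, the TAM receptor best known from the uptake of dying cells, lies at chr2:128698956-128802894 on the plus strand. It ran from 48.6 to 1321 normalized counts in Parental cells (median 157) and from 19.6 to 802 in Resistant cells (median 153). Line #9 was highest among the Parental and line #4 among the Resistant samples, and 2 lines were higher and 4 lower in Resistant cells. P5 held 1483 normalized counts of Mertk in line #3, 441 in line #7 and 795 in line #9. Each was above the Resistant sample of its line, and the within-line log2 differences averaged 3.35 ± 0.98 (SD, n = 3 lines). Over all Resistant samples the 2 states overlapped through line #4. The fit over all samples gave 2.71 for P5 against Resistant cells (standard error 1.05, adjusted p = 0.211). P12 ranged from 72.9 to 1442 (median 489), higher than Resistant cells in 5 of 6 lines with a log2 fold change of 1.75 (standard error 0.86, adjusted p = 0.269). Neither difference in Mertk was called.

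Tyro3, the remaining TAM receptor, lies at chr2:119797733-119818104 on the plus strand. It spanned 602 to 1382 normalized counts in Parental cells (median 1010), 282 to 3963 in Resistant cells (median 791) and 171 to 1349 in P12 (median 1085), and P5 held 950, 242 and 1400 in lines #3, #7 and #9. Resistant cells of lines #4 and #6 lay above every Parental sample and those of lines #3, #7 and #10 below every one, so the spread was wider in Resistant cells. The log2 fold change between them was -0.06 (standard error 0.64, adjusted p = 0.966).

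Egfr binds EGF, TGF-alpha, amphiregulin and related ligands, and lies at chr11:16752203-16918158 on the plus strand. It ran from 1242 to 8753 normalized counts in Parental cells (median 2003) and from 23.5 to 9192 in Resistant cells (median 5900). Line #9 was the highest of the Parental and the lowest of the Resistant samples, at 8753 and 23.5, and the states overlapped. In the other 5 lines Egfr was higher in Resistant cells, by 1.35-fold in line #10 up to 7.40-fold in line #3, and in line #9 it was 372-fold lower. With all lines the log2 fold change was -0.18 (standard error 1.45, adjusted p = 0.954). Without line #9 it was 1.48 with an adjusted p of 0.133. With the cell line as a block and line #9 left out, a setting chosen after seeing the data, Egfr passed the threshold as higher (adjusted p = 0.00822), and 2 of 9 members were called beside 10.6% of all genes. Line #9 stayed low without the drug, with 45.8 normalized counts of Egfr in P5 and 125 in P12. P5 held 7232 in line #3 and 3214 in line #7, and P12 of the 5 other lines held 1355 to 15473.

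Erbb2 has no known ligand of its own and acts as the preferred partner of the other ERBB receptors. It lies at chr11:98412470-98437716 on the plus strand, on the chromosome that also holds Egfr. Parental cells held 2285 to 5576 normalized counts of Erbb2 (median 4671), Resistant cells 1797 to 4249 (median 2563), P12 2060 to 5236 (median 2712) and P5 1642, 5193 and 2883 in lines #3, #7 and #9. Line #9 was the lowest Parental sample, and all 6 Resistant samples lay under the other 5 Parental samples. Resistant cells were lower in 5 of 6 lines, with a log2 fold change of -0.74 (standard error 0.31, adjusted p = 0.110, and 0.0318 with the block). That difference passed an unadjusted p of 0.05 and was not called, also not with the block. Together with Axl, 2 of 9 members had an unadjusted p under 0.05 between Resistant and Parental cells, beside 29.2% of all genes tested. In the fit with the block 5 of 9 did, Axl, Erbb2, Met, Mst1r and Gas6, beside 37.8% of all genes, and between P12 and Resistant cells 3 of 9 did with the block, Axl, Mst1r and Mertk, beside 27.2%.

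Erbb3 binds neuregulins, has little kinase activity of its own and links its partners to PI3K. It lies at chr10:128567523-128589652 on the minus strand. It spanned 100.4 to 2524 normalized counts in Parental cells (median 800.3), 2.5 to 1777 in Resistant cells (median 479) and 107 to 1831 in P12 (median 383), and P5 held 115.5, 1237 and 268 in lines #3, #7 and #9. The lowest value, Resistant line #9, was under the smallest visible signal of its sample (3.77), and Erbb3 of that line was at 336 in P12. Erbb3 was lower in Resistant than in Parental cells in 5 of 6 lines, line #4 being higher by 2.18-fold. The log2 fold change was -1.49 (standard error 1.19, adjusted p = 0.444). Line #9, with its Resistant value under the smallest visible signal, had a log2 difference of -4.86, against -2.86 to 1.12 in the other lines.

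Erbb4, a further neuregulin receptor, lies at chr1:68032186-69108059 on the minus strand. It was listed at 0 in 12 of 21 samples, reached 10 normalized counts in 2 and was therefore not tested. Those 2 were P12 of line #9 with 105 and Resistant line #3 with 25.1 normalized counts, and the next highest value was 4.34.

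Met, the receptor of hepatocyte growth factor, lies at chr6:17463800-17573980 on the plus strand. It ran from 4692 to 11924 normalized counts in Parental cells (median 6845), from 1643 to 7787 in Resistant cells (median 5336) and from 3036 to 9883 in P12 (median 5446), and P5 held 3175, 4848 and 5118 in lines #3, #7 and #9. Line #4 was the highest of all 3 larger groups, and the groups overlapped. Resistant cells were lower in Met in 5 of 6 lines, by up to 4.40-fold in line #6, and 1.46-fold higher in line #9. The log2 fold change was -0.67 (standard error 0.35, adjusted p = 0.216).

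Mst1r, the relative of Met, lies at chr9:107906873-107920383 on the plus strand. Its values ran from 5.73 to 2927 normalized counts in Parental cells (median 707) and from 27.0 to 5367 in Resistant cells (median 3579). In Resistant cells 5 lines lay close together between 3406 and 5367, and line #9 stood far below them at 27.0. In Parental cells the same 5 lines were spread from 56.6 in line #4 to 2927 in line #7. Mst1r was higher in Resistant than in Parental cells in 6 of 6 lines, from 1.27-fold in line #7 to 65.6-fold in line #4. In line #9 the values were low, 27.0 against 5.73, the latter near the smallest visible signal of its sample (3.99). Axl and Mst1r, 2 of 9 members, had a difference of the same sign in all 6 lines in this comparison, as did 18.5% of all genes tested. The log2 fold change of Mst1r was 2.61 (standard error 1.87, adjusted p = 0.383) and was not called. The within-line differences had an SD of 2.28 (n = 6 lines). With the cell line as a block the standard error was 0.88 and the adjusted p was 0.0410, which was not called either.

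In P12 Mst1r ranged from 10.8 to 2868 normalized counts (median 962), and P5 held 184 in line #3, 2980 in line #7 and 3.95 in line #9. P12 lay below the Resistant sample of its line in 6 of 6 lines, from 1.33-fold in line #10 to 118-fold in line #4. Line #9 was again low, with 10.8 in P12 against 27.0 in Resistant cells. In that comparison 2 of 9 members, again Axl and Mst1r, had a difference of the same sign in 6 of 6 lines, beside 16.0% of all genes tested. The log2 fold change of Mst1r was -2.58 (standard error 1.87, adjusted p = 0.493, and 0.0691 with the block). In P12, lines #3 and #4 held 102 and 31.5 normalized counts of Mst1r, and lines #6, #7 and #10 held 1821 or more.

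**Figure D2:**
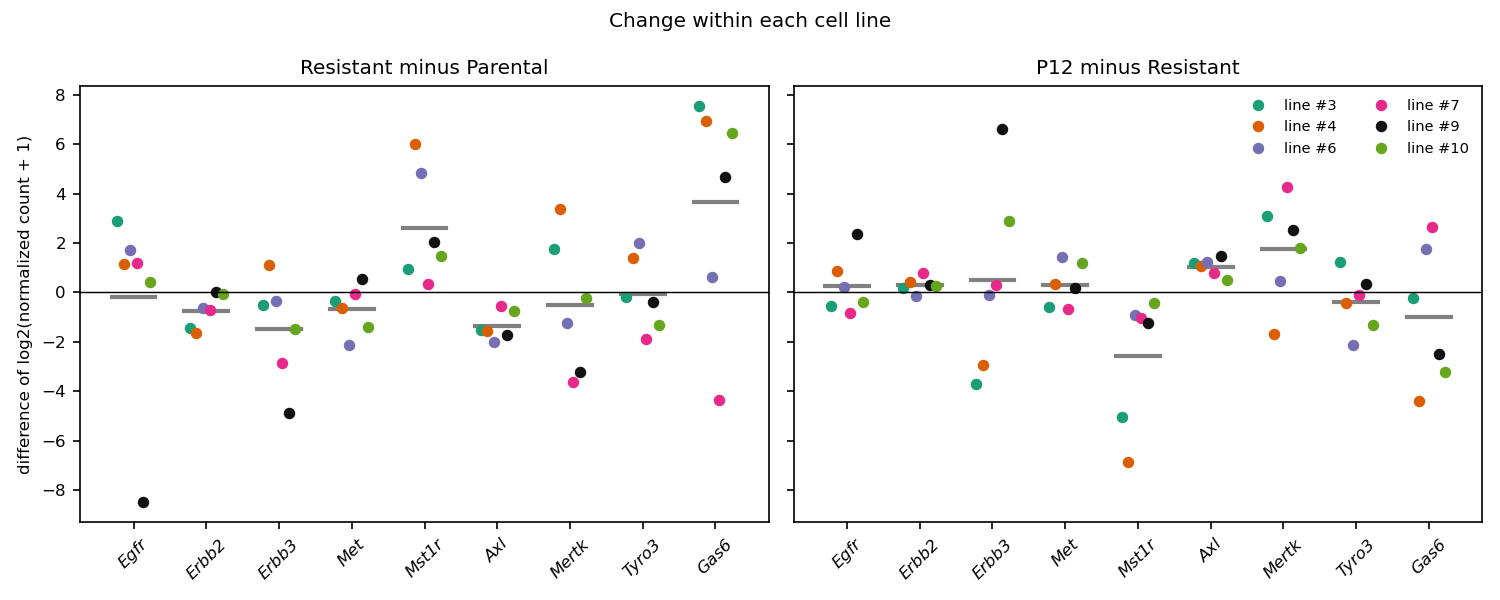
Within-line differences of log2(normalized count + 1) on the vertical axis for the 9 tested members on the horizontal axis, Resistant minus Parental and P12 minus Resistant, with a coloured point for each of the 6 lines and a grey bar at their mean. Axl lay below 0 in 6 of 6 lines in the former (mean -1.35) and above 0 in 6 of 6 in the latter (mean 1.04), and Mst1r did the opposite.

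Against Parental cells, limma called 0 of 9 members in P12 (0 at an unadjusted p under 0.05), where 0.114% of all genes were called and 15.3% had an unadjusted p under 0.05. In P5 against Parental cells it called 0 of 9 (0 at an unadjusted p under 0.05), where 0.0259% of all genes were called and 10.4% passed unadjusted. In P5 against Resistant cells it called 0 of 9 (2 at an unadjusted p under 0.05, Axl and Mertk), where 0.378% of all genes were called and 15.4% passed unadjusted. The median log2 fold change of the 9 tested members was -0.52 between Resistant and Parental cells, 0.31 between P12 and Resistant cells and -0.31 between P12 and Parental cells. Over all genes tested these medians were -0.00, 0.02 and 0.03. Since 1 member did not pass the filter, these figures describe the 9 tested members only.

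The members differed in how much of their variation followed the state. In the 18 samples of Parental, Resistant and P12 cells, the state held 66.3% of the sum of squares of the log2 values of Axl and the cell line 23.3%. For Egfr the state held 0.254%, the cell line 48.2% and the rest, which followed neither alone, 51.6%. For Mst1r the cell line held 68.5%, the state 14.3% and the rest 17.2%. Erbb2 had 30.2% for the state, and the other members between 3.60% in Tyro3 and 19.8% in Gas6. The median over all genes tested was 19.8% for the state, 35.8% for the cell line and 36.6% for the rest.

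Levels of different genes were set side by side as normalized counts per kb of exon (GENCODE M21). Per kb, Axl was the highest of the 9 receptors in 21 of 21 samples. Its level per kb in Parental cells was 3875 to 7568 (median 5836), and its range there did not overlap with that of the next member, Erbb2 with a median of 897 per kb. Then came Met with a median of 891 per kb, Egfr with 177, Tyro3 with 163, Mst1r with 141, Erbb3 with 133, Gas6 with 64.5, Mertk with 36.2 and Erbb4 with 0. From Erbb2 to Mertk each overlapped with the next in this order. In Resistant cells Axl had 1337 to 3741 per kb (median 2198) and was followed by Mst1r with a median of 715 per kb, Met with 695, Egfr with 521, Erbb2 with 492, Gas6 with 491, Tyro3 with 128, Erbb3 with 79.7, Mertk with 35.3 and Erbb4 with 0.256. There too, only Axl and Erbb4 stood apart from their neighbours. Gas6 of Resistant line #4 reached 14710 per kb, above each of the 9 receptors in that sample.

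Among 58 receptors, the 9 members and 49 other receptor tyrosine kinases, Axl had the highest median per kb in Parental, P5 and P12 cells and the second highest in Resistant cells. Receptors above Axl per kb in some samples were Ddr1 in 5, Epha2 in 3, Flt4 in 2, and Pdgfrb, Ephb3 and Ddr2 in 1 each. The other receptor tyrosine kinases give the frame for the members: 42 were tested, and 3 were called higher in Resistant than in Parental cells and 2 lower (5 and 4 with the block). Ddr1, a collagen receptor, had a log2 fold change of 2.11 (adjusted p = 0.000784, 0.0110 without line #3), and Styk1 one of -3.28 (adjusted p = 0.000254). Tek (5.90), Ephb6 (3.52) and Fgfr4 (-6.87) were called as well and each missed the threshold without line #4 (adjusted p = 0.0169, 0.0148 and 0.0125) or #6 (0.0171, 0.0171 and 0.0206). So did Tek without line #10 (0.0103), Ephb6 without line #3 (0.0294) or #9 (0.0120) and Fgfr4 without line #7 (0.0141) or #10 (0.0121) and with only the compared states in the fit (0.01001). Tek held 0 to 15.8 normalized counts in Parental cells (median 1.45) and Fgfr4 held 0 to 29.4 in Resistant cells (median 1.58). Both medians lay under the smallest visible signal, so the size of these fold changes depends on the pseudocount. The most abundant of those not called were Epha2, Fgfr1, Flt4 and Igf1r.

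Of the ERBB ligands, 10 of 11 were tested and 1 was called, lower in Resistant cells (3 with the block). This was Areg, amphiregulin, a ligand of Egfr. Parental cells held 215 to 2492 normalized counts and Resistant cells 0 to 70.3, without overlap, and the lowest Resistant values, in lines #4 and #9, were under the smallest visible signal. Its log2 fold change was -6.89 (adjusted p = 0.000331), and P12 was higher than Resistant cells by 4.88 (adjusted p = 0.00859). The latter call was lost with each of the 6 lines left out in turn (adjusted p from 0.0136 without line #6 to 0.0441 without line #10) and with a pseudocount of 8 (0.0135) or no filter (0.0126), and with only the compared states in the fit (0.0458). Hbegf and Tgfa were called lower with the block alone (log2 fold changes -2.32 and -3.62), and Btc and Ereg were the other abundant ligands of this list. Of the genes for ligands of Met, Mst1r and the TAM receptors and for the control of their activation by proteases, 7 of 8 were tested. Of these, St14, a protease that activates hepatocyte growth factor, was called lower in Resistant than in Parental cells (log2 fold change -2.70, adjusted p = 0.00875, 0.0145 without the filter and 0.0369 with only the compared states in the fit). Its call was lost without line #3, #4, #6, #7 or #10, with an adjusted p of up to 0.0528. With the block 4 were lower, and the protease inhibitors Spint2 and Spint1, with Pros1 and Hgfac, were the most abundant of the rest.

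Further along the pathway, Gab1, an adaptor of Met and Egfr, was the only gene of 16 adaptors and relays called between Resistant and Parental cells (1 lower in addition with the block), while Ptpn11, Shc1, Crk and Plcg1 were the most abundant others. Gab1 had a log2 fold change of 2.76 (adjusted p = 0.000771), with 227 to 661 normalized counts in Parental and 1295 to 5178 in Resistant cells. Of 13 inhibitors of receptor signalling, 2 were called in the same comparison, both lower. Errfi1, a feedback inhibitor of ERBB receptors, had 3970 to 10368 normalized counts in Parental and 235 to 1433 in Resistant cells, with a log2 fold change of -3.01 (adjusted p = 0.000111). Cblc had a log2 fold change of -5.84 (adjusted p = 0.00163) and missed the threshold without line #3, #4, #6 or #10 (adjusted p up to 0.0141). Resistant cells held 0 to 7.14 normalized counts of Cblc, with a median of 0.636 that lay under the smallest visible signal. With a pseudocount of 8 the log2 fold change of Cblc was -3.82. Cbl, Ptprj, Lrig1 and Socs5 were the most abundant of the others. Of 7 genes of ligand and receptor shedding, Rhbdf2 was called higher in Resistant cells (log2 fold change 1.86, adjusted p = 0.00532) and Adam9 lower (-1.5, adjusted p = 0.00499), and both missed the threshold without line #4 (0.0107 and 0.0360) or #6 (0.0320 and 0.0356), as did Rhbdf2 without line #3 (0.0298) or #10 (0.0250). Of 5 membrane partners Muc1 was called lower in Resistant cells (log2 fold change -5.57, adjusted p = 0.00875), and 2 were lower with the block. The call of Muc1 was lost without the filter (adjusted p = 0.0126), with only the compared states in the fit (0.0138) and without line #3 (0.0513), #4 (0.0391), #6 (0.0472) or #10 (0.0424).

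The list of MAPK output, the transcripts that follow ERK activity, had 11 of 12 genes called in Resistant against Parental cells, all lower, and 10 higher in P12 than in Resistant cells (11 with the block). The 11 were Dusp4, Dusp6, Spry2, Spry4, Spred1, Etv4, Etv5, Phlda1, Fosl1, Egr1 and Ccnd1. Between P12 and Resistant cells the call of Fosl1 was lost without line #3, #4, #6, #9 or #10 (adjusted p from 0.0193 to 0.0328) and with only the compared states in the fit (0.0439), where Spry2 was lost too (0.0135). Its sum was 49997 to 63471 normalized counts in Parental and 3030 to 18949 in Resistant cells. The summed level of the 10 members was 35875 to 61468 in Parental and 19840 to 76570 in Resistant cells, which overlapped. In the comparison of P12 with Resistant cells, the other calls from the lists of receptors, ligands and partners were Errfi1 and Styk1 higher and Pik3cb, Tek and Ddr1 lower. Without line #10 these 5 missed the threshold (adjusted p = 0.0230, 0.0224, 0.0131, 0.0345 and 0.0452), as they did without line #4 or #6 and with only the compared states in the fit (0.0204, 0.0277, 0.0182, 0.0329 and 0.0472). Styk1, Pik3cb, Tek and Ddr1 also missed it without line #3 (0.0107, 0.0218, 0.0252 and 0.0650), Errfi1 and Ddr1 without line #7 (0.0248 and 0.0142) and Styk1 without line #9 (0.0159). Ddr1 missed it without the filter (0.0126) and with upper-quartile rescaling (0.0113) as well.

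Genes used as markers of other cells were read in the same samples, all from cultured tumour cell lines. The paper reports a more mesenchymal state of its resistant cells, and whether these RNAs came from other cells was not tested. Of 7 tested fibroblast markers limma called 1 higher in Resistant than in Parental cells, Dcn (3 with the block), and Lum was at 0 in 14 of 21 samples. Their sum, with Col1a1 as the most abundant gene by its mean, was 121 to 24844 normalized counts in Parental cells (median 496), 1898 to 577895 in Resistant cells (median 169936), 404 to 82965 in P5 (median 50509) and 248 to 153829 in P12 (median 36348). The highest sum was that of line #9 in Parental, Resistant and P5 cells and that of line #4 in P12. Of 8 mesenchymal genes, 1 was called higher in Resistant cells, Cdh2. Of 6 macrophage markers 3 were in the table and tested and limma called 0 between Resistant and Parental cells (2 at an unadjusted p under 0.05), with Ptprc between 3.02 and 20.0 normalized counts and sums of 135 to 244 in Parental, 200 to 2891 in Resistant, 196 to 430 in P5 and 179 to 243 in P12 cells. Of 5 endothelial markers 1 was called higher in Resistant than in Parental cells, Tek, with sums of 44.8 to 180 in Parental, 32.8 to 2757 in Resistant, 142 to 204 in P5 and 84.1 to 249 in P12 cells. The highest macrophage sum was that of Resistant line #10, where Csf1r was the most abundant gene, and the next was 570 in Resistant line #4. The highest endothelial sum was that of Resistant line #6, where Tek was the most abundant gene. Of 5 acinar markers 4 were in the table and 0 passed the filter, with sums of at most 21.7 in any sample and Ptf1a at 0 in 20 of 21. The part of these markers in the results on the receptors was not tested.

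The members were also compared with each other and with other genes by Pearson's r of log2 values over the 21 samples, which share lines and states, so r is a description only. Between members, r was highest for Axl and Erbb2 (0.651), followed by Erbb3 and Mst1r (0.580) and by Egfr and Gas6 (0.523), and lowest for Erbb2 and Tyro3 (-0.516). Among 12062 genes with a mean of at least 100 normalized counts, Axl was most like Tnfrsf23 (0.932), Add2 (0.924) and Ankrd50 (0.908). Egfr was most like Csf2ra (0.944), Nlrx1 (0.908) and Eva1b (0.901). Mst1r was most like Ang (0.926), Ak3 (0.917) and Tmem151a (0.906). Erbb2 was most like Tgfa (0.899), Carmil1 (0.896) and Tm4sf4 (0.896), and genes like Erbb3 included Gpr39 (0.878) and Chn2 (0.862). Gas6 was most like Sorcs1 (0.855), Rgp1 (0.832) and AI838599 (0.823), and Mertk was most like Peak1 (0.789), Fnbp1 (0.780) and Clip2 (0.779). Tyro3 was most like Gas1 (0.787), Kif26b (0.778) and Pard6g (0.768), and the likeness was weakest for Met with Ftl1 (0.727), Mtx1 (0.706) and Ankrd13c (0.701).

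Promoter windows of 300 bases from RefSeq (build GRCm38.p6) were found for 9 of the 10 members (not for Erbb3), 10 windows in all since Mst1r had 2. They were searched on both strands for 4 motifs: AP-1 (TGANTCA, in 7.81% of 32851 promoters), ETS (CCGGAAG, 8.86%), TEAD (GGAATG, 14.7%) and ZEB/SNAI (CACCTG, 20.2%). AP-1 was found in Met, ETS in Egfr, TEAD in Axl and Erbb2, and ZEB/SNAI in Met. The windows of Axl, the member that was called, of Egfr, whose direction differed in line #9, and of Met, which held 2 motifs, are shown 5′ to 3′ with the motif in capitals. They come from chr7:25788684-25788983 (minus strand), chr11:16751953-16752252 (plus strand) and chr6:17463707-17464006 (plus strand). A match is a match of letters only. The TEAD letters of Axl begin at base 18 of the window, the ETS letters of Egfr, read on the opposite strand, at base 131, the AP-1 letters of Met at base 197 and its ZEB/SNAI letters, also on the opposite strand, at base 276.
Axl: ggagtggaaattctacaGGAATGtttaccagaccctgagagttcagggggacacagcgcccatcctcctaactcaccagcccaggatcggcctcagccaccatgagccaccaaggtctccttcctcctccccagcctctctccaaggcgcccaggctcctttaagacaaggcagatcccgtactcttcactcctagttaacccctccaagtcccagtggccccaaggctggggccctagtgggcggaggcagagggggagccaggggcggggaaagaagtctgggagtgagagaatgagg
Egfr: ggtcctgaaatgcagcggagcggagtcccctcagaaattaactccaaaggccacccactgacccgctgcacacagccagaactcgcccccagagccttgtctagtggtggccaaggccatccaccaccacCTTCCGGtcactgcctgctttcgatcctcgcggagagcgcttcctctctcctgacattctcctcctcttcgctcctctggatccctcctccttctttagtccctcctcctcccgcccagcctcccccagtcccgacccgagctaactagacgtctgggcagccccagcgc
Met: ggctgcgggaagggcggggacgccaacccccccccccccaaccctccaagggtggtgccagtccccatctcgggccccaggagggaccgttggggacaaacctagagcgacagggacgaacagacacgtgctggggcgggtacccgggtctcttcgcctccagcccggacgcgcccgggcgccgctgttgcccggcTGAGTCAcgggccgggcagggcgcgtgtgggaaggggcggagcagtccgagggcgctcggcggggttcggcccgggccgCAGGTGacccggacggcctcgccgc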

How the data were processed

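RNA of 21 samples was read from the deposited table of signal values, gene counts normalized by the authors with DESeq2 1.18 after CASAVA 2.17 or bcl2fastq 2.19, Skewer, Salmon 0.12 and TXImport (mm10; the annotation release is not given in the sources used here). Reads per sample were estimated from the step between low values, of which 53.5% to 73.6% lay on multiples of it, since whole reads could not be recovered. Log2 values (pseudocount 1) of genes with at least 10 in at least 3 samples were fitted with limma 3.58.1 (trend, R 4.3.3) over all 4 states without a covariate, with Benjamini-Hochberg adjustment over 19300 genes. States were paired by the line numbers in the labels. With state means removed, r across genes between Parental and Resistant samples averaged 0.241 in the same line and -0.0462 in different lines (genes are not independent replicates). These averages were 0.316 and -0.0645 between Parental and P12, and 0.457 and -0.0903 between Resistant and P12. In line #3 the own line was not the best match of Parental with Resistant (r = 0.159) or with P12 (r = 0.00819).

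Named genes were the 10 members, from each list the genes called and at most 4 of the most abundant others, and genes among the 3 most like each member. The members and lists were chosen with earlier results of these data known, and the lists came from general knowledge. Exon lengths came from GENCODE M21. Motifs, levels per kb, correlations and variance shares were computed with Python 3.11.15, numpy 2.4.6 and pandas 2.3.3, and figures with matplotlib 3.10.9. Of these steps, the limma fit of Resistant against Parental cells was tested on simulated data. Of 100 genes given a log2 fold change of 1.5 there, 49 were recovered (47 with the block). Of 100 genes given a log2 fold change of 3, 82 were recovered (79 with the block). Alternatives were pseudocounts of 0.5 and 8, no filter, upper-quartile rescaling, the cell line as a block, an adjusted p below 0.05, only the compared states in the fit, each line left out, and the block without line #9. Proteins are not analysed here.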

Additional observations from a re-analysis of the deposited data

Results flagged for a closer look

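Within each group of 6 samples or 6 within-line differences, the gap between the extreme sample and its nearest neighbour was divided by the whole range of the group. In 6 of 50 groups examined this share was above a limit that chance alone passes in about 1 in 20 groups. The extreme sample came from line #9 in all 6.

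In Resistant cells, line #9 was the lowest sample for Egfr (gap 0.723 of the range, log2 value 4.62 against 10.80 to 13.17 in the other lines), Erbb3 (0.681, 1.81 against 7.93 to 10.80) and Mst1r (0.913, 4.81 against 11.73 to 12.39). The Erbb3 value was under the smallest visible signal of that sample. The difference between Resistant and Parental cells in Egfr was lowest in line #9 (0.784, a log2 difference of -8.48 against 0.44 to 2.89). Among Parental cells line #9 was lowest in Erbb2 (0.699, 11.16 against 12.06 to 12.45), and among P12 samples it was highest in Erbb4 (1, with 105 normalized counts against 0 in the other 5 lines). With 5 samples tied at 0 any other value gives a share of 1, so the rate of 1 in 20 does not apply to Erbb4 in P12, and 5 of the 6 groups remain without it.

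These groups share samples and genes, so the 6 are not independent. Parental cells of line #9 also had the lowest summed epithelial markers of their state, 16121 normalized counts, and the highest summed fibroblast markers, 24844 against 121 to 887 in the other 5 lines. Resistant cells of line #9 had the highest fibroblast sum of their state as well, 577895. The part of either list in these values was not tested.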

How the results depend on the processing

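Of the 45 log2 fold changes of the 9 tested members in the 5 comparisons, 45 kept their side of the threshold with pseudocounts of 0.5 and 8, without a filter and with only the compared states in the fit. Axl between Resistant and Parental cells stayed called in those settings, with upper-quartile rescaling and with the replicate block (adjusted p from 6.33e-05 to 0.00556). The number of members called there was 0 to 1 with each line left out (0 without line #4, #6 or #9, where fewer samples were used), and 2 with the replicate block and without line #9, the setting chosen after seeing the data, in which the log2 fold change of Egfr turned from -0.18 to 1.48 (adjusted p = 0.00822; the cause was not tested). The number between P12 and Resistant cells was 0 in the fit as reported and 1 with upper-quartile rescaling, with the replicate block and with an adjusted p below 0.05, each time Axl (adjusted p from 0.000887 to 0.0692 over all settings). The cause was not tested. The replicate block changed no other call of a member. Over all genes, the block raised the calls from 1023 to 2017 between Resistant and Parental, from 412 to 872 between P12 and Resistant, from 22 to 101 between P12 and Parental and from 73 to 118 between P5 and Resistant cells. An adjusted p below 0.05 gave 2190 for Resistant against Parental, 947 for P12 against Resistant, 376 for P5 against Resistant and 9 in place of 5 for P5 against Parental cells, and for P12 against Parental cells 54 higher and 62 lower in place of 5 and 17, the largest relative move of this setting. With only the compared states in the fit, which uses fewer samples, 103 genes were called between P12 and Resistant, 12 between P12 and Parental, 14 between P5 and Resistant and 1 between P5 and Parental cells. With each line left out the calls ran from 450 to 1237, 132 to 467, 4 to 68, 23 to 48 and 1 to 5 in the order Resistant against Parental, P12 against Resistant, P12 against Parental, P5 against Resistant and P5 against Parental, and with the block and without line #9 they were 1989, 810, 217, 36 and 7. Depth limits values under 2.32 to 4.07 normalized counts, which among the members touches Erbb4, Erbb3 in Resistant line #9 and Gas6 in Parental line #9. Outside the members it touches, among others, Areg in Resistant lines #4 and #9. It also touches Cblc, Fgfr4, Cldn4 and Cldn7 in Resistant and Tek in Parental cells.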
